A study of Mus musculus with 24 samples.

Results

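The loci described here are those of 7 genes of the SOX transcription factor family: Sox9, Sox4, Sox5, Sox6, Sox13, Sox21 and Sox2. Each locus was taken as the GENCODE gene body on GRCm38 plus 50 kb on either side, and every ATAC-seq peak that overlapped such a window was a member. The 12 deposited peak lists held 664 such peaks among 708357 peaks in all. When overlapping peaks of different lists were merged into regions, they gave 131 of 98240 skin regions and 83 of 97078 culture regions. Over all 12 lists together they made 158 of 134385 regions.

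ATAC-seq marks open chromatin by where the Tn5 transposase can insert adapters. The study asked how the chromatin of epidermal stem cells (EpdSCs) responds when the hair follicle factor SOX9 is switched on. In skin, EpdSCs were sorted from back skin of male CD1 mice with the genotype K14rtTA; TRE-myc-Sox9, in which the keratin 14 promoter drives the doxycycline (DOX)-dependent activator in basal keratinocytes and the activator turns on a myc-tagged Sox9 transgene. The sort took CD49f-high, CD34-negative and Ly6A-high cells that lacked CD31, CD45, CD117 and CD140a.

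The 5 skin groups were D0 (no DOX, postnatal day 21), W1 (day 28), W2 (day 35), W6 (day 63) and W12. W12 cells came from grafts, which per the study's methods were neonatal transgenic skin on immunocompromised hosts, so that for W12 the time on DOX and the tissue source cannot be told apart. All skin groups carried both transgenes, D0 included. The 7 culture groups were keratinocytes of male CD1 back skin with K14rtTA. The noDOX group carried TRE-myc-Sox9 and received no DOX. The other 6 groups received DOX at 1 µg per ml and carried TRE-myc-Sox9 (WT-SOX9), TRE-myc-Sox9noHMG (ΔHMG-SOX9, without the DNA-binding HMG box), TRE-myc-Sox9noTA (ΔTA-SOX9, without the transactivation domain), TRE-FLAG-AFOS (AFOS, a dominant-negative FOS that blocks AP1), TRE-myc-Sox9 with TRE-FLAG-AFOS (SOX9+AFOS), or TRE-myc-Sox9 with TRE-ARID1a (SOX9+ARID1a, with a subunit of the SWI/SNF remodeller). The labels give 3 days of DOX for replicate 1 of WT-SOX9, ΔHMG-SOX9 and ΔTA-SOX9 and name no length of treatment for the other induced cultures. Per the study's methods, lentivirus delivered the SOX9 versions of WT-SOX9, ΔHMG-SOX9 and ΔTA-SOX9 to K14rtTA cells. It also delivered AFOS and ARID1a, and in SOX9+AFOS and SOX9+ARID1a the cells brought the Sox9 transgene themselves. Each skin replicate pooled several mice. Each group had 2 replicates, which the authors merged before calling peaks, so every group gave a single list, the spread between replicates is unknown and no test was possible. In what follows the intervals are 95% Wilson intervals that cover counting error only.

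The lists held 49458 to 75956 peaks, and a peak had to reach the authors' normalized score of 3 to be kept. "Absent" therefore means no peak at or above that score. In the skin lists a score of 3 went with a lowest −log10 q-value from 4.21 at W2 to 14.5 at D0. The peak names of AFOS, SOX9+AFOS and SOX9+ARID1a record another input (fragments) than those of the other lists, and whether this moved their peaks was not tested. Of the epidermal markers Krt5, Krt14, Trp63, Itga6 and Ly6a, the first 4 had a promoter peak in every list and Ly6a at W2 alone. The melanocyte list (Dct, Mlana, Tyr, Kit) had 0 of 4 promoter peaks in 11 lists and 1, Mlana, in SOX9+AFOS. The immune and Merkel cell lists had 0 in every list. Of the fibroblast list (Pdgfra, Col1a1), Pdgfra, the gene of CD140a, had a promoter peak in all 12 lists, and Col1a1 had one at D0 (4.62) and in ΔTA-SOX9 (9.04) alone. The endothelial genes Pecam1 and Cdh5 had promoter peaks in ΔTA-SOX9, as did Cdh5 in ΔHMG-SOX9.

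SOX proteins bind DNA through an HMG box that fits into the minor groove and bends the helix, at sites built around the letters ACAAT. They fall into subgroups by sequence. Sox9 is a SOXE gene and is required for hair follicle stem cells (HFSCs). Sox5, Sox6 and Sox13 form the SOXD group, whose proteins lack a transactivation domain of their own and act with other factors, SOX5 and SOX6 together with SOX9 in cartilage. Sox4 is a SOXC gene, active in progenitor cells of many tissues. Sox2 and Sox21 belong to the SOXB genes, and in skin Sox2 marks the dermal papilla and Merkel cells while Sox21 acts in the differentiating hair shaft.

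The windows differed in length, since Sox5 and Sox6 are very long genes, and so did the density of open regions in them. The Sox4 and Sox21 windows had 12.4 and 12.5 skin regions per 100 kb, above 86.9% and 87.3% of 21992 coding genes. Sox9 (6.63), Sox13 (6.33), Sox6 (5.99), Sox5 (4.27) and Sox2 (3.92) lay near or below the median gene, at 5.95 with quartiles of 2.30 and 9.84. In culture the order was another. Sox13 had 9.85 regions per 100 kb, against a median gene of 6.11, while each of the other 6 windows was below that median at 1.96 to 3.85. The Sox4 window fell from 13 skin regions to 4 culture regions, and that of Sox21 also from 13 to 4.

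**Figure D1:**
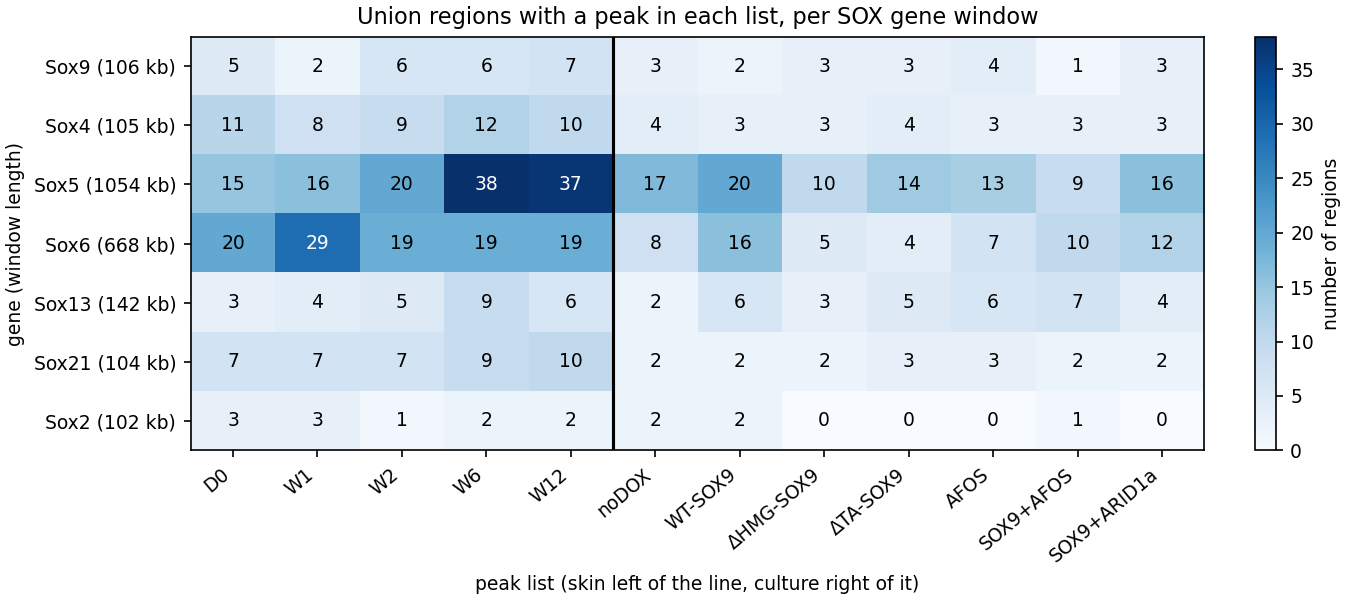
Number of union regions with a peak in each of the 12 lists (columns) for the 7 SOX gene windows (rows, with window length in kb); the skin lists are left of the black line. The Sox5 window goes from 15 regions at D0 to 38 at W6, and the Sox6 window from 8 without DOX to 16 with WT-SOX9.

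Of the 158 regions, 126 were present in a skin list, where the share over all regions was 70.9%. Both a skin and a culture list held 51 of them, against 43.0% of all regions. All 12 lists held 9 of the 158, against 14.1% of all regions. These 9 were 3 in Sox5, 2 in Sox4 and 1 each in Sox9, Sox6, Sox13 and Sox21. The region of Sox13 lies at the start of the neighbouring gene Etnk2 and need not belong to Sox13.

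DNA from gained or opened regions that held a consensus SOX match is shown first. These regions were chosen for the match. It was in the central 200 bp of 10 of 25 member regions opened by WT-SOX9. The same held for 5 of 15 skin member regions gained by W2 and kept. A Sox5 region lost by W2, at chr6:144725812-144726355, held a match too. Each stretch is 100 bases of the forward strand of GRCm38, 5′ to 3′, placed so that a match to ACAATGG or ACAATAG on either strand is in the middle. Capitals mark these matches. All lie in introns, and their values are given further on.
Sox6 site at chr7:115615690-115615789: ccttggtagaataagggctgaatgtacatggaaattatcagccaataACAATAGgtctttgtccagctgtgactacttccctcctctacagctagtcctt
Sox6 site at chr7:115866281-115866380: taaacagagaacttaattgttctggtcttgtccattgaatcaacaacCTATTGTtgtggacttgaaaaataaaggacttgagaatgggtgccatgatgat
Sox6 site at chr7:115669798-115669897: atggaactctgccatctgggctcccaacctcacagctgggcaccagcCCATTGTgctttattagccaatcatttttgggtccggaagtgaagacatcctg
Sox5 site at chr6:143845905-143846004: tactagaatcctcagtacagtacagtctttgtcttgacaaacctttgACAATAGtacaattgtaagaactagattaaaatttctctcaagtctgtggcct
Sox5 site at chr6:144152524-144152623: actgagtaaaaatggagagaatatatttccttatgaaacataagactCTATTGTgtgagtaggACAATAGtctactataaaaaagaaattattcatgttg
Sox13 site at chr1:133400472-133400571: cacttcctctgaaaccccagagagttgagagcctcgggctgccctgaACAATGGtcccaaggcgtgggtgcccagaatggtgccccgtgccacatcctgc
In the second Sox5 stretch a pair of matches lies in opposite orientation, each reading away from the other.

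In culture, regions that the WT-SOX9 protein opened, that is absent without DOX and present with it, lay mostly within Sox6 and Sox5. Of 45 member regions absent without DOX, WT-SOX9 opened 25 (55.6%, interval 41.2 to 69.1%), against 31.4% of all regions absent without DOX. The Sox6 window held 11 of its 17 such regions opened, Sox5 9 of 13, Sox13 4 of 12 and Sox21 1 of 2. Around Sox9 the 1 region absent without DOX was not opened, and Sox4 and Sox2 had no such region. Without the Sox5 and Sox6 windows, 5 of 15 regions were opened (33.3%), close to the share over all regions.

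ΔHMG-SOX9 opened 2 of the 45 regions (4.44%), against 17.7% of all regions. ΔTA-SOX9 opened 8 of 45 (17.8%), against 32.1%. AFOS opened 9 of 45 (20%), against 34.6%. SOX9+AFOS and SOX9+ARID1a each opened 14 of 45 (31.1%), against 31.3% and 28.8% of all regions. With a score of at least 5, SOX9+AFOS opened 6 of 34 (17.6%), against 31.9%. WT-SOX9 was thus the arm with the highest member count, and ΔHMG-SOX9 the one with the lowest. Without the Sox5 and Sox6 windows this order changed. ΔTA-SOX9 then opened 5 of 15 (33.3%) and AFOS and SOX9+AFOS 6 of 15 each (40.0%), above the shares over all regions, SOX9+ARID1a 3 of 15 (20%) and ΔHMG-SOX9 1 of 15, below them. All 6 arms share the noDOX list as their control.

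**Figure D2:**
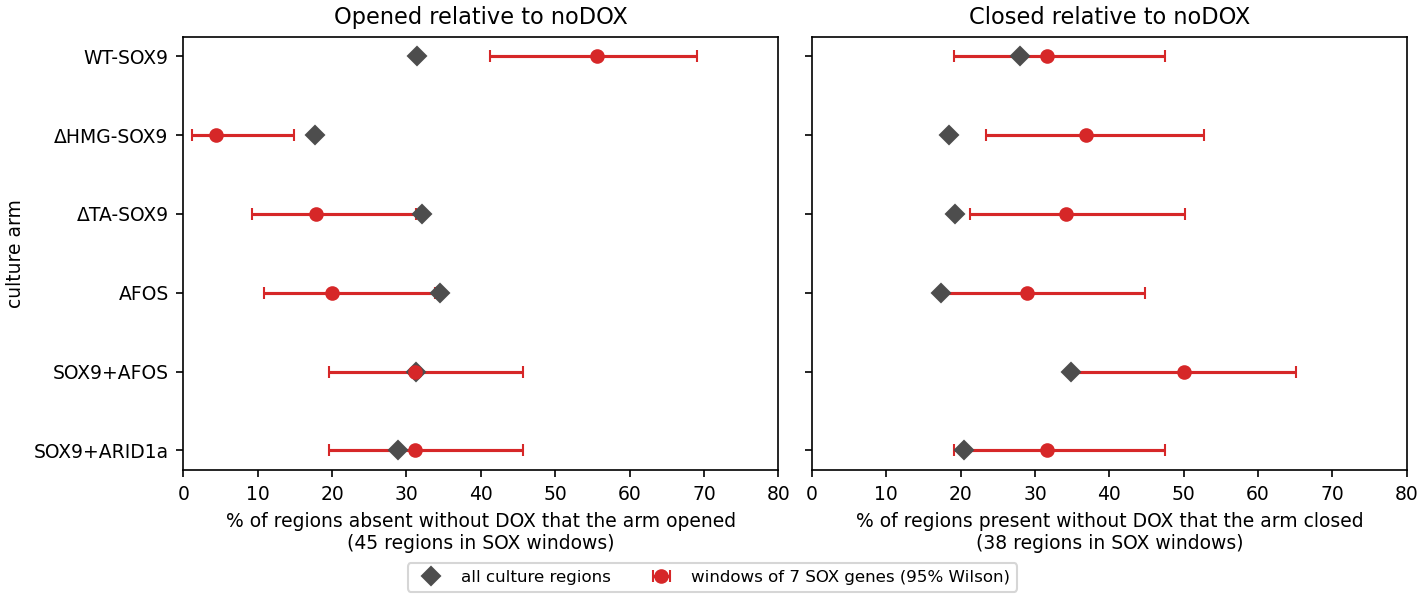
Share of regions that each DOX arm opened (left, of regions absent without DOX) or closed (right, of regions present without DOX), in percent, for the 7 SOX gene windows (red circles with 95% Wilson intervals, counting error only) and for all culture regions (grey diamonds). WT-SOX9 opened 55.6% of the 45 member regions against 31.4% of all, and ΔHMG-SOX9 4.44% against 17.7%.

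Of the 25 member regions opened by WT-SOX9, 22 had no peak with ΔHMG-SOX9, ΔTA-SOX9 or AFOS, against 78.3% of all opened regions. With SOX9+ARID1a, 11 of the 25 had a peak, against 39.2%. With SOX9+AFOS, 7 of the 25 had one, against 34.3%. These counts are 88%, 44% and 28% of the 25, on either side of the shares over all opened regions.

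Sox6, a SOXD gene on chromosome 7 read from the reverse strand, had the highest-scoring opened sites. The Sox6 intron site at chr7:115615447-115616221 had no peak at D0 or W1, then scored 18.4 at W2, 13.6 at W6 and 3.59 at W12. In culture it scored 45.2 with WT-SOX9 and 10.6 with SOX9+ARID1a and was absent from the other 5 lists. It was thus present in every skin list from W2 on and, in culture, only where full-length SOX9 was given without AFOS. The site at chr7:115669093-115670117 followed a like order, with 15.9 at W2, 14.3 at W6, 6.21 at W12 and 24.0 with WT-SOX9, and no peak in the other 8 lists.

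Other opened Sox6 sites were seen in culture alone. The site at chr7:115865778-115866759 scored 32.2 with WT-SOX9, 3.05 with SOX9+AFOS and 5.11 with SOX9+ARID1a. The one at chr7:115624608-115625535 scored 27.8 with WT-SOX9 and 4.60 with SOX9+ARID1a. The one at chr7:115563915-115564928 scored 19.1 with WT-SOX9 and was in no other list. None of these 3 had a peak in skin, and the last 2 held no SOX match, so that only some of the strongest Sox6 sites of culture were also seen in skin.

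A region at chr7:115824496-115825546 covered the annotated start of a shorter coding Sox6 transcript at position 115824710, inside the gene. It scored 24.8 with WT-SOX9 and 5.04 with SOX9+AFOS and was absent from the other 10 lists, all skin lists included. It was singled out after its values were seen. The 5′ end of the whole Sox6 gene had a peak close by, at chr7:116039579-116040625, with scores of 12.1 to 22.7 in skin and 3.68 to 10.5 in 6 culture lists, but this region lies at the start of the neighbouring gene 1110004F10Rik.

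A further Sox6 site changed in score rather than in presence. At chr7:115481274-115482248, in an intron, the score stood at 5.47 and 3.93 in D0 and W1 and went to 25.1 (W2), 29.1 (W6) and 35.7 (W12). In culture it was 6.46 without DOX, 15.8 with WT-SOX9, 3.23 with SOX9+AFOS and 17.9 with SOX9+ARID1a, and no peak was listed for ΔHMG-SOX9, ΔTA-SOX9 or AFOS. The log2 ratio of W2 to D0 was 2.20 by score and 0.65 by the authors' fold enrichment, the same direction with a smaller size.

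Sox6 also lost sites in skin. Of 20 Sox6 regions present at D0, 8 were absent at W2, against 19.7% over all skin regions. Lost for good by W2, that is absent from W2, W6 and W12 alike, were 5 of its 40 regions, against 5.59% over all. The intervals of these Sox6 shares, 21.9 to 61.3% and 5.46 to 26.1%, are wide. The highest of these, at chr7:115987959-115988457, scored 4.13 at D0 and 8.24 at W1 and was then absent. The intron region at chr7:115774532-115775238 scored 12.4, 20.3, 5.36, 3.58 and 4.42 from D0 to W12. The region at chr7:115960913-115961404 scored 8.10, 15.9 and 7.38 at D0, W1 and W2 and was absent at W6 and W12. Gains and losses thus lay side by side within this gene, and its count of regions was 19 at each of W2, W6 and W12 against 20 at D0.

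At W1 the Sox6 window stood apart. It held 29 regions then, and 9 of its 40 skin regions were present at W1 alone. Over all windows 12 of 131 regions were present at W1 alone, against 4.68% of all skin regions. Of the 67 member regions absent at D0, 16 were present at W1, against 20.7% of all, and 11 of the 16 were in Sox6. When all skin lists were cut to the length of the shortest, 9 of 36 Sox6 regions were present at W1 alone, against 6.91% of all regions. With a score of at least 5 the count was 4 of 26, against 5.22%.

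**Figure D3:**
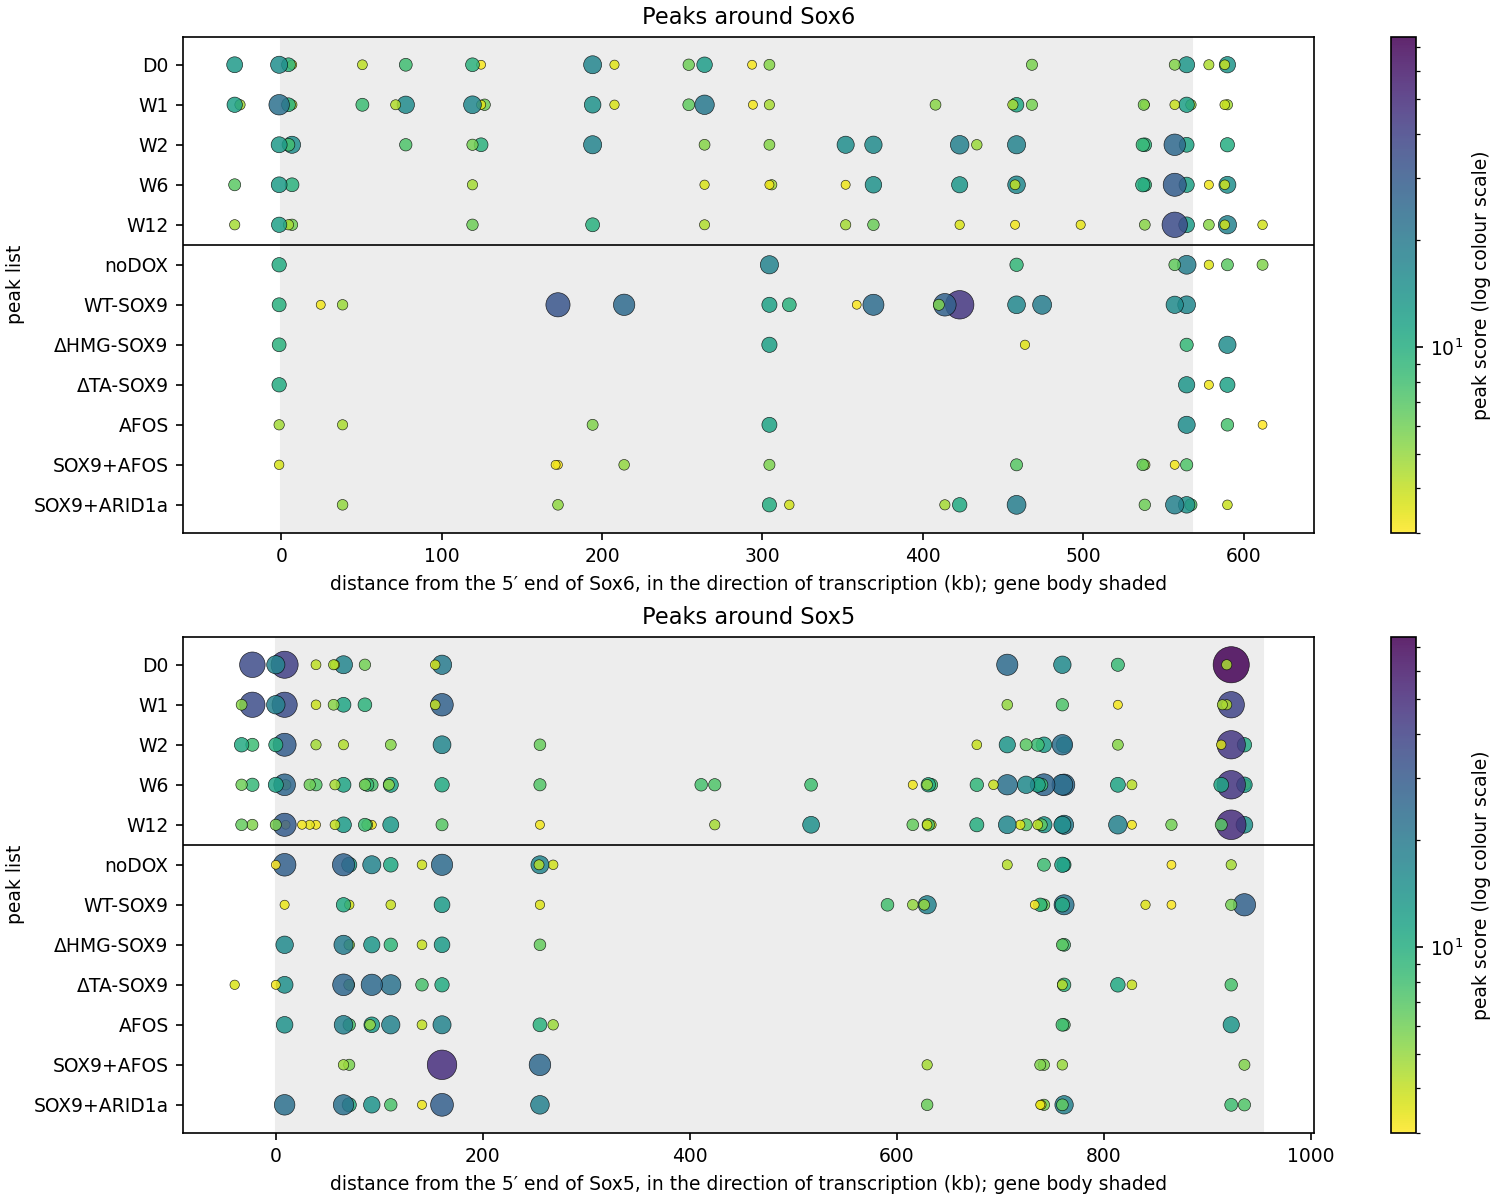
Position of every peak in the Sox6 (top) and Sox5 (bottom) windows, in kb from the 5′ end of the gene in the direction of transcription (x axis), in each of the 12 lists (rows; skin above the line). Colour (log scale) and size of the points give the peak score and grey shading the gene body; WT-SOX9 points of 45.2 and 32.2 in Sox6 and of 27.1 in Sox5 have no noDOX counterpart.

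Sox5, the longest of the 7 genes, gained regions in skin mainly after W2. Sox5 regions with a peak numbered 15 (D0), 16 (W1), 20 (W2), 38 (W6) and 37 (W12). Gained after W2, that is absent at D0, W1 and W2 and present at W6 and W12, were 12 of 45 Sox5 regions and 15 of 131 member regions, against 6.89% of all skin regions. Of 25 Sox5 regions absent at W2, 18 were present at W6, while over all windows this was 34 of 64, against 52.0% of all regions. The W6 and W12 lists were also the longest, with 75956 and 71503 peaks against 57334 at D0. With all skin lists cut to the same length, 7 of 40 Sox5 regions were gained after W2, against 4.09% of all regions. Without the Sox5 and Sox6 windows, 2 of 46 member regions (4.35%) were gained after W2, below the 6.89% of all regions. The hair follicle stem cell list (Lhx2, Nfatc1, Lgr5, Tbx1, Cd34) had promoter peaks at 3 of 5 genes at D0, W1 and W2 and at 5 of 5 at W6 and W12. The genes added were Lgr5 and Cd34, and Cd34 scored 3.03 at W12, near the minimum of 3. In culture 4 of 5 had a promoter peak without DOX and with WT-SOX9, and 2 to 4 in the other arms. The part of this list in the Sox5 counts was not tested.

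Gained by W2 and kept, that is absent at D0 and W1 and present in all later lists, were 9 of the 45 Sox5 regions. Over all windows 15 of 131 were (11.5%, interval 7.06 to 18.0%), against 7.99% of all skin regions. The other 6 were 3 in Sox6 and 1 each in Sox9, Sox13 and Sox21. Without the W1 list the count was 18 of 120, against 9.64% of all regions. With all skin lists cut to the same length, it was 7 of 120 (5.83%), against 5.94%, and without the Sox5 and Sox6 windows 3 of 46 (6.52%), against 7.99%, so that the excess over all regions was not seen under either alternative. With a common −log10 q minimum of 14.5 it was 5 of 108 (4.63%), against 3.76%. The Sox5 intron site at chr6:143845663-143846200, near the 3′ end of the gene, scored 10.6 at W2, 12.5 at W6 and 14.7 at W12. In culture it scored 27.1 with WT-SOX9, 5.55 with SOX9+AFOS and 7.16 with SOX9+ARID1a and was absent from the other 4 lists. It was the only Sox5 region absent at D0 and without DOX that had a peak both at W2 and with WT-SOX9.

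The Sox5 site at chr6:144039131-144040185 scored 12.5, 26.2 and 13.5 at W2, W6 and W12, after no peak at D0 and W1. It was already open in culture without DOX at 8.11, and scored 6.36 with WT-SOX9, 5.76 with SOX9+AFOS and 5.89 with SOX9+ARID1a. The Sox5 site at chr6:144526421-144526945 scored 6.35, 7.12 and 3.20 at W2, W6 and W12. In culture this site scored 17.2 without DOX, 3.56 with WT-SOX9, 6.38 with ΔHMG-SOX9, 9.62 with AFOS, 25.2 with SOX9+AFOS and 18.4 with SOX9+ARID1a and was absent with ΔTA-SOX9. Gains in skin thus included regions that culture cells had open before SOX9 was induced. The site with paired matches, at chr6:144152135-144152914, came later in skin, with 5.01 at W6 and 3.85 at W12. In culture it scored 17.7 with WT-SOX9, 4.64 with SOX9+AFOS and 6.23 with SOX9+ARID1a and had no peak in the other 4 lists.

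While Sox5 gained regions, the region over its 5′ end and one upstream of it had lower scores from W2 on. The region over the 5′ end of the gene, at chr6:144781364-144782496, scored 17.6, 18.2, 9.99, 11.6 and 5.72 from D0 to W12. In culture it scored 3.03 without DOX and 3.23 with ΔTA-SOX9 and was otherwise absent. The region upstream of it at chr6:144804243-144804902 scored 36.1, 35.4, 8.30, 8.71 and 5.51 from D0 to W12 and was in no culture list. Its log2 ratio of W2 to D0 was −2.12 by score and −1.28 by fold enrichment. The highest Sox5 region in skin, far into the gene at chr6:143858366-143859040, scored 73.9 at D0 and 38.6 to 49.0 in the later lists. D0 was the highest of the 5 skin lists at that last region, although the log2 ratio of W2 to D0 was −0.72 by score and −0.10 by fold enrichment, and both D0 and W1 stood above the later lists at the upstream one. No Sox5 coding transcript had a peak within 500 bp of its start in any list.

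In culture the Sox5 region at chr6:144772731-144774096, 8.56 kb into the gene, scored 28 without DOX, 3.34 with WT-SOX9, 16.1 with ΔHMG-SOX9, 14.8 with ΔTA-SOX9, 14.4 with AFOS and 22.8 with SOX9+ARID1a, and was absent with SOX9+AFOS. In skin it stayed between 25.6 and 40.7, so that not every region near the 5′ end was low in later lists. The lowest score and the missing peak were thus in lists with full-length SOX9, while SOX9+ARID1a, which also carried it, had the highest score of the 6 arms.

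WT-SOX9 closed 12 of 38 member regions present without DOX (31.6%, interval 19.1 to 47.5%), against 27.9% of all regions present without DOX. The other arms closed 11 to 19 of the 38. ΔHMG-SOX9 closed 14 of 38, against 18.5%, and ΔTA-SOX9 13 of 38, against 19.2%. AFOS closed 11 of 38, against 17.3%. SOX9+AFOS closed 19 of 38, against 34.9%, and SOX9+ARID1a 12 of 38, against 20.5%. WT-SOX9 thus had the highest count of opened member regions but not of closed ones. Without the Sox5 and Sox6 windows WT-SOX9 closed 3 of 13 (23.1%), with the gene bodies alone 6 of 25 (24.0%) and with 20 kb added 9 of 33 (27.3%), each below the 27.9% of all regions. Of the 19 closed by SOX9+AFOS, 11 were in Sox5.

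The highest-scoring Sox5 region closed by WT-SOX9, at chr6:144688785-144689550, scored 17.4 without DOX, 13.7 with ΔHMG-SOX9, 24.7 with ΔTA-SOX9, 12.7 with AFOS and 14.1 with SOX9+ARID1a and was absent with WT-SOX9 and SOX9+AFOS. In skin it had no peak at D0, W1 or W2 and scored 7.69 at W6 and 3.24 at W12. The highest in the Sox6 window, downstream of the gene at chr7:115448533-115449290, scored 6.84 without DOX, 15.7 with ΔHMG-SOX9, 11.7 with ΔTA-SOX9, 7.64 with AFOS and 3.92 with SOX9+ARID1a and was likewise absent with WT-SOX9 and SOX9+AFOS. In skin it scored 13.9, 4.61, 10.2, 15.1 and 17.8 from D0 to W12. Both sites thus had a peak at W6 and W12 in skin. Each held the AP1 consensus, which reads TGAGTCA or its complement TGACTCA, and no SOX match. Not all closed sites were like them. The next Sox6 window region closed by WT-SOX9, at chr7:115426925-115427275, held 2 SOX matches beside its AP1 match, and the closed Sox4 region at chr13:28959503-28959899 held neither motif. The stretches around the AP1 match of the first pair, in capitals, are shown as the highest closed sites of the long genes.
Sox5 closed site at chr6:144689229-144689328: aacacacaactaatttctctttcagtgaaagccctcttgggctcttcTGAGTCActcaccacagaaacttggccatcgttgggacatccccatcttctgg
Sox6 closed site at chr7:115448813-115448912: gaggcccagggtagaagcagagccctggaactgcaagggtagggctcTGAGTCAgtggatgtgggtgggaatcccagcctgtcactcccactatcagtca

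The consensus letters were counted in the central 200 bp of every region, on both strands. A SOX match was in 10 of the 25 member regions opened by WT-SOX9 (40.0%, interval 23.4 to 59.3%), against 16.8% of all regions opened by WT-SOX9. Of the 12 member regions closed by WT-SOX9, 0 had one (up to 24.2%), against 3.50% of all closed regions, while 7 of the 12 had an AP1 match, against 29.9%. With the full region scanned, 12 of the 25 opened members had a SOX match (interval 30.0 to 66.5%), against 29.0% of all opened regions, and 2 of the 12 closed members (interval 4.70 to 44.8%), against 10.7% of all closed regions. Over all 83 culture regions of the windows, 16 had a SOX match, against 6.31% of all culture regions. The difference between opened and closed members was not tested, and their intervals overlap in both scans.

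In skin, 19 of the 131 member regions had a SOX match (14.5%, interval 9.49 to 21.5%), against 5.33% of all skin regions. Among the 15 regions gained by W2 that stayed, a SOX match was found in 5, against 12.2% of all such regions, and 0 had an AP1 match (up to 20.4%), against 26.9%. Of the 15 gained after W2, 4 had a SOX match, against 7.81%, and 6 an AP1 match, against 39.9%. The central bases of member regions had a median GC content of 49.0% in skin and 47.5% in culture, against 50% and 48.5% for all regions. With the shorter letters ACAAAG or ACAATG, the skin share was 31.3% (interval 24.0 to 39.7%), against 25.2% of all regions, which the interval holds. With these letters over the full region the direction turned, at 67 of 131 (51.1%) against 53.5%. A match is a description of letters and not evidence of binding.

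Sox13, the remaining SOXD gene, on chromosome 1, had a weak but constant start region in skin. The region at chr1:133423335-133424519 scored 5.06, 5.30, 6.82, 6.75 and 5.52 from D0 to W12. In culture it was absent without DOX and scored 11.8 with WT-SOX9 and 5.49 with ΔTA-SOX9 only. The Sox13 intron site printed above, at chr1:133400203-133400842, was absent at D0 and W1 and scored 4.42 at W2, 24.7 at W6 and 4.63 at W12, and in culture 11 with SOX9+AFOS alone. Its W6 score stood far above the lists on either side of it. The number of Sox13 regions per culture list was 2 without DOX and 3 to 7 with DOX.

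For Sox9 itself, peaks over exons are given apart, because fragments of the transgene can align there. The gene lies at chr11:112782224-112787760 on the forward strand. The gene body had a peak in all 12 lists, and the highest over its exons in each skin list scored 13.8 (D0), 17.3 (W1), 21.2 (W2), 15.9 (W6) and 10.3 (W12). In culture these values were 21.8 without DOX, 21.2 with WT-SOX9, 71.9 with ΔHMG-SOX9, 101 with ΔTA-SOX9, 22.8 with AFOS, 13.3 with SOX9+AFOS and 6.49 with SOX9+ARID1a. ΔTA-SOX9 and ΔHMG-SOX9 stood above the other 5 culture lists, and WT-SOX9, whose peak was the widest, scored close to noDOX and AFOS.

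A peak lying wholly within exon 3, and ending at or before the last coding base, was listed at D0 (score 13.5), W2 (15.1), W6 (9.22), W12 (8.84), without DOX (3.71), with SOX9+AFOS (5.11) and with SOX9+ARID1a (3.71). No peak lay over exon 3 at W1, with ΔTA-SOX9 or with AFOS, and of these only the AFOS label names no Sox9 transgene. In WT-SOX9 and ΔHMG-SOX9 a longer peak reached into exon 3. Since D0 and noDOX cells had the exon 3 peak too, it did not separate induced from uninduced cells. In WT-SOX9 a single peak of 3425 bp ran through all 3 exons and ended 25 bp before the end of the coding sequence.

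ΔHMG-SOX9 had a separate peak of 2902 bp that began 7 bp inside the coding sequence and ended 14 bp before its end. The ΔTA-SOX9 peak of 2006 bp ended inside exon 2, so that no peak lay over exon 3, as at W1 and with AFOS. Short peaks over exon 2 were listed at W12 (280 bp, score 5.26), with SOX9+AFOS (250 bp, 4.61) and with SOX9+ARID1a (263 bp, 4.14), and no other list had a separate one. Endogenous accessibility and transgene DNA cannot be told apart in the exon peaks.

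**Figure D4:**
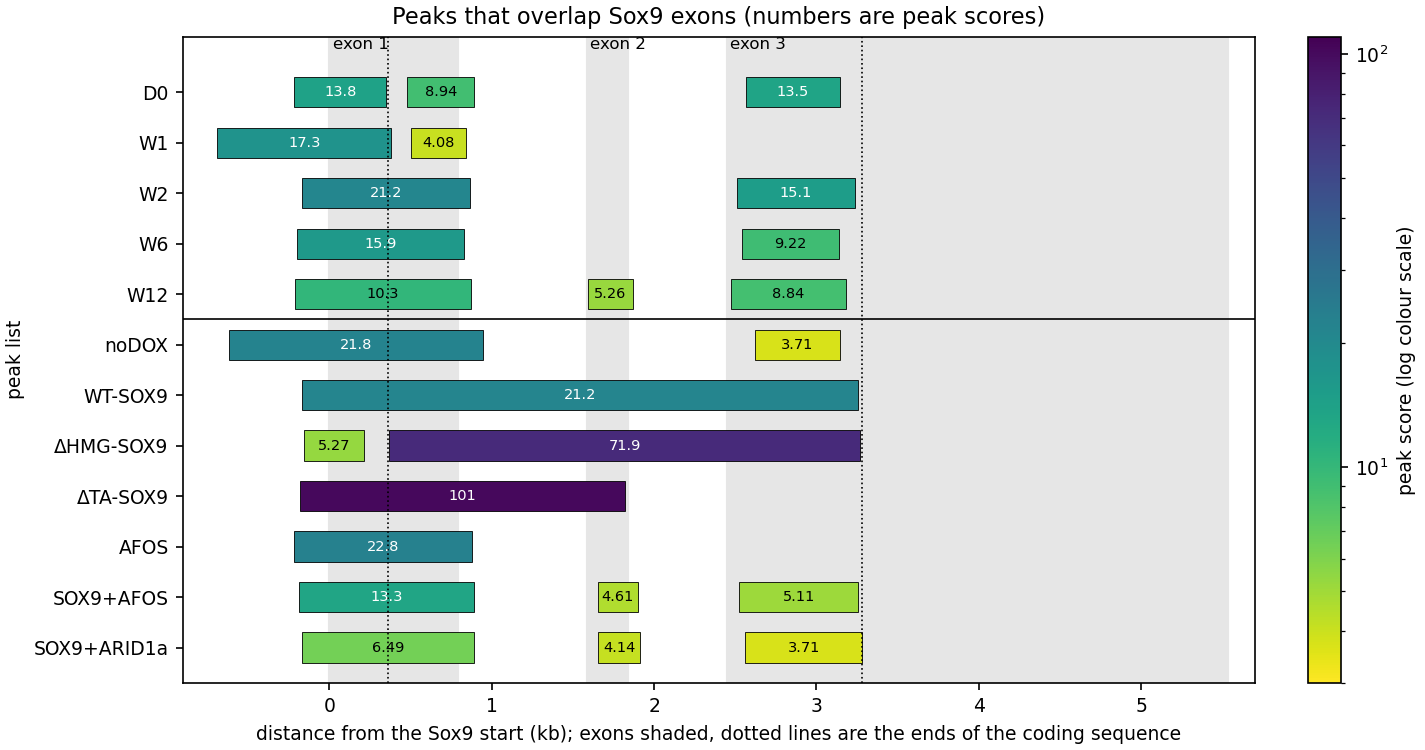
Peaks overlapping Sox9 exons in the 12 lists (rows), drawn to scale in kb from the Sox9 start, with exons shaded, the ends of the coding sequence dotted and each peak's score printed on it and given by colour (log scale). No peak lies over exon 3 at W1, with AFOS or with ΔTA-SOX9, whose peak of score 101 stops within exon 2.

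Outside the exons, a pair of Sox9 sites had a higher score after D0 in skin. The upstream site at chr11:112766997-112768235, 14.6 kb before the start, scored 3.67 at D0, 13.3 at W2, 16.0 at W6 and 7.84 at W12 and had no peak at W1. The downstream site at chr11:112824090-112824588, 42.1 kb past the start, scored 3.46, 10.7, 27.6 and 11.6 in the same 4 lists and was also absent at W1. Neither was in a culture list, including those with SOX9 induced, so these sites were seen in skin only. By fold enrichment the log2 ratios of W2 to D0 were 0.56 and 0.62, against 1.86 and 1.63 by score. The site at chr11:112810857-112811959 was open throughout skin, at 14.4 to 32.0, and was 12.8 without DOX, 5.19 with WT-SOX9, 14.7 with ΔHMG-SOX9, 19.8 with ΔTA-SOX9, 7.66 with AFOS and 5.81 with SOX9+ARID1a. It was absent with SOX9+AFOS.

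Sox4 had its start region at chr13:28952028-28954057 in all 12 lists, with skin scores of 11.9 to 24.6 and culture scores of 3.72 to 12.7. Around it the sites went in opposite directions. The upstream site at chr13:28959393-28960035, 6 kb before the start, scored 63.1, 46.7, 47.5, 32.6 and 25.8 in the 5 skin lists in order of time. In culture it scored 3.87 without DOX and 3.53 with ΔTA-SOX9 and was absent otherwise. The downstream site at chr13:28916956-28918349 scored 4.13 at D0, 20.3 at W2, 30.3 at W6 and 21.6 at W12, was absent at W1, and scored 9.74 to 26.5 in all 7 culture lists. Its log2 ratio of W2 to D0 was 2.30 by score and 0.62 by fold enrichment. The first was thus highest in untreated skin and nearly absent in culture, and the second was low in untreated skin and open in culture with or without DOX. A Sox4 site with skin scores of 4.81 to 20.7 at chr13:28924068-28924580 was in no culture list.

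Sox21 had the highest-scoring start region of the 7 genes in every skin list. At chr14:118236218-118237553 it scored 53.0, 51.1, 41.2, 36.1 and 44.2 from D0 to W12 and 27.7 (AFOS) to 60.2 (WT-SOX9) in culture, with 45.3 without DOX. Neighbouring sites within 10.9 kb past the start were lower in later skin lists and had no culture peak. The site at chr14:118231026-118231428 scored 17.0, 20.7, 15.1, 9.17 and 8.78. The site at chr14:118225936-118226389 scored 13.3, 13.3, 7.50, 3.75 and 3.38. The site at chr14:118227781-118228552 scored 20.7, 15.9, 4.39, 3.90 and 11.1, so that W12 was above W2 and W6 there, and its log2 ratio of W2 to D0 was −2.24 by score and −1.05 by fold enrichment. In culture the upstream region at chr14:118258463-118259619 scored 11 without DOX, 10.7 with ΔHMG-SOX9, 29.9 with ΔTA-SOX9 and 9.44 with AFOS and was absent from the 3 lists with full-length SOX9. In skin it scored 4.83, 3.86, 5.7 and 8.67 at D0, W1, W6 and W12 and was absent at W2, so that it was highest at W12. The region at chr14:118220241-118220735 was the converse in culture, with peaks of 8.41 (WT-SOX9), 4.84 (SOX9+AFOS) and 7.08 (SOX9+ARID1a) in those 3 lists alone, and of 5.75 at W2 and 7.02 at W6 in skin.

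Sox2 had few regions. The one at its start, chr3:34649260-34651135, scored 14, 11.2, 8.90, 13.1 and 7.03 in skin. In culture it scored 6.41 without DOX, 6.12 with WT-SOX9 and 11.6 with SOX9+AFOS and was absent from the other 4 lists. Krt20 and Atoh1, markers of Merkel cells, had no promoter peak in any list. The only Sox2 region lost for good by W2, at chr3:34664170-34664520, was at D0 alone with 5.33.

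**Figure D5:**
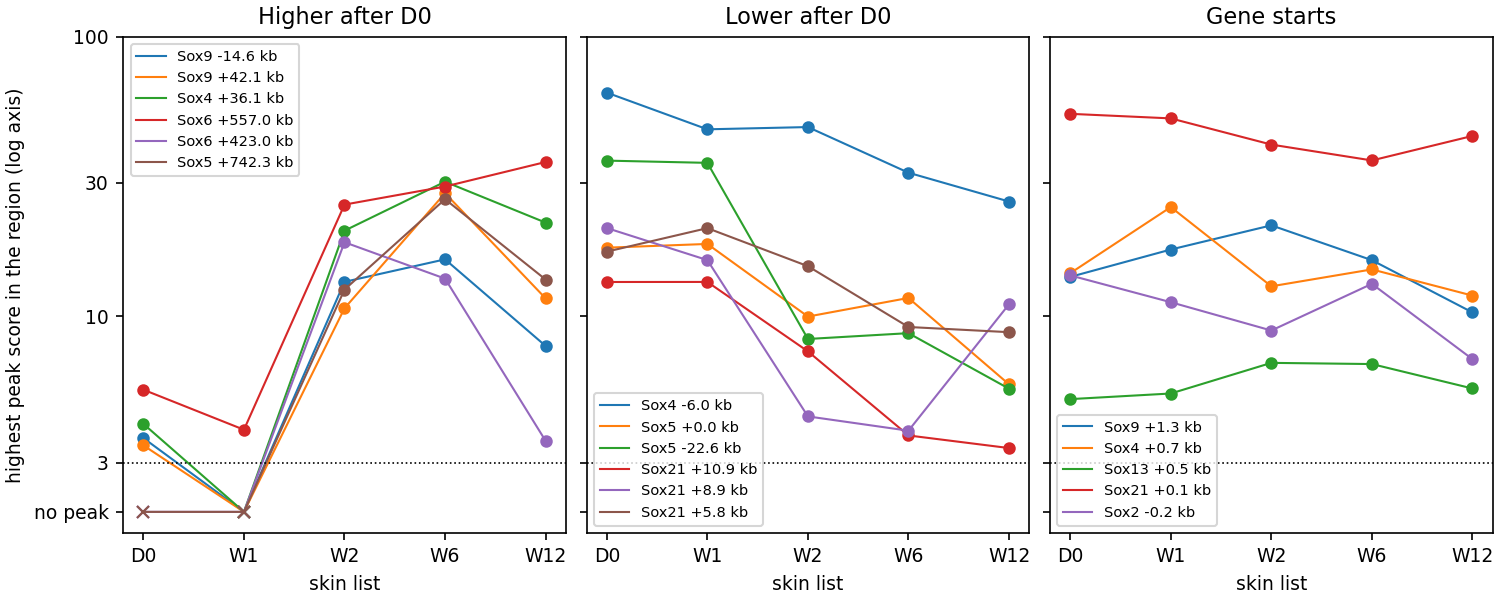
Highest peak score (log axis) of 17 regions, chosen after their values were seen, in the 5 skin lists, named by gene and distance in kb from the 5′ end of the gene, with crosses for no peak and the dotted line at the score minimum of 3. Sites on the left include the Sox6 site that goes from 5.47 at D0 to 35.7 at W12, those in the middle the upstream Sox4 site that goes from 63.1 to 25.8, and those on the right the start regions, with Sox21 highest.

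Counted over all 7 windows, the static share was lower than over all regions, and no test of that difference was possible. Present in all 5 skin lists were 34 of 131 (26.0%, interval 19.2 to 34.1%), against 37.8% of all skin regions. The long genes had the lower shares, with 10 of 45 in Sox5 and 7 of 40 in Sox6, while Sox4 had 7 of 13. Without the W1 list, 40 of 120 were static, against 43.0% of all regions, and 15 of 120 were gained after W2, against 7.88%. Of 67 member regions absent at D0, 23 were present at W2 (34.3%), against 37.8% of all, and with a common −log10 q minimum 11 of 44, against 21% of all, which is above. Of 64 present at D0, 20 were absent at W2 (31.2%), against 19.7%. Lost for good by W2 were 10 of 131, against 5.59% of all, and 5 of the 10 were in Sox6. The interval of the 10 was 4.2 to 13.5% and held that share. Both losses turned to below all regions with a score of at least 5, where 7 of 40 present at D0 were absent at W2 (17.5%), against 18.8%, and 3 of 102 were lost for good (2.94%), against 6.12%. Without the Sox5 and Sox6 windows, 2 of 46 were lost for good (4.35%), also below all regions.

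Among 17 member regions gained in skin between D0 and W2 that had no noDOX peak, 4 had a peak with WT-SOX9 in culture, against 21.2% of all such regions. They were the 2 Sox6 sites and the Sox5 site at chr6:143845663-143846200 described above, and the Sox21 site at chr14:118220241-118220735. The other 13 skin gains were not seen with WT-SOX9.

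Of the 13 other SOX genes, promoter peaks were listed for 5 to 7 in the skin lists and 3 or 4 in the culture lists. Sox12 and Sox15 had one in all 12 lists. Sox7 and Sox8 had one in all 5 skin lists and no culture list, and Sox11, the SOXC relative of Sox4, in all 7 culture lists at 21.7 to 42.1 and no skin list. Sox10, a melanocyte gene and relative of Sox9, had none in any list.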

How the data were processed

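ATAC-seq libraries of 24 samples (12 groups of 2) were used as the peak lists deposited by the authors. Per the study's methods, ATAC-seq reads were aligned to GRCm38 (mm10) with the PEPATAC pipeline. Replicates were then merged and peaks called with MACS2, with duplicates kept. The submitters' processing notes name Bowtie2 2.2.9, Picard 2.3.0, SAMtools 1.9, MACS2 2.1.1 and deepTools 2.5.4. The lists hold the authors' normalized peak score, and the skin lists also the deposited fold enrichment, a ratio to local background, and the deposited −log10 q-value. A difference in score need not be a like difference in accessibility. At the Sox9 start region the score was 13.8 at D0 and 21.2 at W2, and the fold enrichment 6.75 and 6.53. The culture lists hold no fold enrichment, so their scores could not be compared in this way. The score appears scaled to a like total per list, which was inferred from the totals. Read depth is not given in the sources used here.

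Peaks overlapping by at least 1 bp were merged into regions (pandas 2.3.3, NumPy 2.4.6), separately for the skin lists, the culture lists and all 12. Genes came from GENCODE vM21, and sequence was read from GRCm38.p6 with pysam 0.24.0, where 0 peaks passed a chromosome end. Class counting was tested on simulated lists. A gene marker had a promoter peak when one lay within 500 bp of a coding transcript start.

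Named regions were those over the start of the longest coding transcript, the 3 highest-scoring of each gained or lost skin class, and the 2 highest opened and closed by WT-SOX9, per gene, of which the text gives the higher-scoring ones. Other regions were singled out after their values were seen, as were the classes present at W1 alone, present at W6 of those absent at W2, and the comparisons among opened regions. The members and lists were chosen with earlier results of these data known. Alternatives were other score minimums, list lengths, overlaps, windows and motif settings, and, added later, leaving out the W1 or W12 list, shorter SOX letters in the full region, and fold enrichment in place of score.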

Additional observations from a re-analysis of the deposited data

How the results depend on the processing

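Each share is set against that of all regions under the same alternative. With a score of at least 5, the static skin share was 18.6% against 38.5%, that lost by W2 and not regained 2.94% against 6.12%, and that absent at W2 of regions present at D0 17.5% against 18.8%, so that both losses were below all regions there. The shares opened by ΔHMG-SOX9 and SOX9+AFOS were then 0% against 17.8% and 17.6% against 31.9%. With lists cut to the shortest of their set, the share gained by W2 and kept was 5.83% against 5.94% and that gained after W2 6.67% against 4.09%. With a common −log10 q minimum of 14.5, the static share was 17.6% against 34.0%, that gained by W2 and kept 4.63% against 3.76%, that lost by W2 14.8% against 14.6% and that absent at W2 of those present at D0 54.7% against 43.2%. The share present at W2 of those absent at D0 was 11 of 44 against 21% of all, above all regions in this setting only. With the gene body alone 86 skin regions were left and ΔTA-SOX9 opened 8.57%, and with 20 kb added 7.89%, both against 32.1%. In these windows WT-SOX9 closed 24.0% and 27.3%, below 27.9%, and SOX9+AFOS opened 34.3% and 34.2%, above 31.3%, as it did (31.8%) with regions at other genes' starts left out. Without the Sox5 and Sox6 windows, 46 skin and 28 culture regions were left. The static share was then 37.0% against 37.8%, that gained by W2 6.52% against 7.99%, that gained after W2 4.35% against 6.89% and that lost by W2 4.35% against 5.59%. WT-SOX9, ΔTA-SOX9 and AFOS opened 33.3%, 33.3% and 40.0%, against 31.4%, 32.1% and 34.6%, and ΔHMG-SOX9 closed 23.1% against 18.5%. Without the W12 list, 20.6% were gained after W2, against 15.9%. SOX matches were in 22.9% of skin and 31.3% of culture regions with the full region scanned, against 13.2% and 15.5%, and in 31.3% and 37.3% with the shorter letters ACAAAG or ACAATG, against 25.2% and 28.5%. With both changed together, an alternative chosen after seeing the data, the shares were 51.1% against 53.5% in skin and 63.9% against 57.2% in culture. The share opened by WT-SOX9 was above, and the static skin share below, that of all regions under every alternative run for them. The cause of these shifts was not tested, and several of the alternatives also left fewer regions.

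No paired analysis was possible because the replicates of each group were merged before peaks were called. Leaving out a replicate was not run for the same reason. Read depth is unknown. Of 13 skin regions whose score differed by at least 2-fold between D0 and W2, all 13 kept their direction by fold enrichment and 9 differed by less than 2-fold. Smaller score differences did not always keep it. At the Sox9 start region the log2 ratio of W2 to D0 was 0.61 by score and −0.05 by fold enrichment. At the Sox13 start region it was 0.43 by score and −0.13 by fold enrichment.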
